A study of Homo sapiens with 24 samples.

Results

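The early transcriptional response of PEO1 B cells to the G-quadruplex (G4) ligand pyridostatin (PDS) was taken from 6 of the 24 RNA-seq libraries of the series, namely the 3 replicates treated with 5 µM PDS for 2 h and the 3 untreated replicates. PEO1 is a human ovarian adenocarcinoma line that lost BRCA2 function. The PEO1 B cells carry the genotype BRCA2+ because a spontaneous reversion restored the reading frame, so treated and untreated cells alike have functional BRCA2 and represent 1 reverted line. The untreated cells are labelled as having no treatment, and no vehicle is named. Comparisons were also drawn with PEO1 B cells after 6 h of the same dose, and with PEO4 B cells (genotype WT, a cisplatin-resistant line of the same origin) untreated or after 2 h, each in 3 replicates. Of 28277 genes in the count table, 17020 had enough counts to be tested.

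G4s are multi-stranded folds that guanine-rich DNA or RNA can adopt, and they are often found in the promoters of active genes. PDS binds and stabilizes G4s, can stall polymerases at these folds and is known to raise DNA damage there. Short-lived transcripts, such as those of immediate early genes and cytokines, follow changes in transcription within hours, and long-lived mRNAs follow more slowly.

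Library totals lay between 19635769 and 22375644 counts in untreated cells and between 33260167 and 39866793 after 2 h, so treated libraries were deeper. Ribosomal RNA took 0.217% to 0.474% of the counts in untreated libraries and 0.0233% to 0.0253% in treated ones. The untreated and treated libraries therefore differ in depth and composition together with PDS, and these cannot be told apart from the treatment. Levels are given as normalised read counts (CPM, counts scaled to the TMM-adjusted library size). Replicates correlated at 0.993 or more on the log2 scale in both groups, and each pair differed by more than sampling noise. The study calls its expression replicates biological, while neither the labels nor the methods say how their cultures were separated. P-values and SEs come from 1 fit to all 18 PEO1 B and PEO4 B libraries. They therefore also carry spread from groups outside the comparison made. In bulk RNA, fewer cells of a type and less RNA per cell cannot be told apart. The ovarian carcinoma factor PAX8 was present at 162 to 193 CPM in untreated libraries and 166 to 179 CPM after 2 h. Of 21 markers of leukocytes, endothelium and fibroblasts 8 had enough counts to be tested and none was called. COL1A1, a fibroblast collagen, passed the test at -0.94 ± 0.25 and would be called with library totals (-1.09), upper-quartile scaling (-1.02) or the filter at 5 CPM (-1.01), and without untreated replicate 1 (-1.001) or 3 (-1.02) or 2 h replicate 1 (-1.01). The count of lower markers was 2 without untreated replicate 1, and 1 without untreated replicate 3 or 2 h replicate 1 or 2. Their summed level was 44.7 to 49.5 CPM untreated and 49.6 to 53.2 CPM at 2 h, most of it CD68.

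After 2 h of PDS more genes were called lower than higher. Calls required edgeR's quasi-likelihood test to pass 0.05 after Benjamini-Hochberg adjustment and the log2 fold change to exceed 1 in size. By this rule 201 genes (1.18% of those tested) were upregulated and 1087 (6.39%) downregulated. By adjusted p alone the directions were near balance, with 26.4% of genes higher and 26.2% lower. The imbalance thus lay in the large changes, and these were mostly of genes with low levels. Among the 2995 genes with a mean under 1 CPM, 16.7% were called lower and 2% higher. Among the 2310 genes over 100 CPM, 25 were called lower and 13 higher, and the median log2 change of this class was 0.185. The median over all genes was -0.03. The treated libraries did not overlap the untreated ones in 30.7% of genes on the higher side and 31.1% on the lower. A filter that kept only genes with a mean of at least 5 CPM left 51 upregulated and 312 downregulated genes of 11491 tested.

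**Figure D1:**
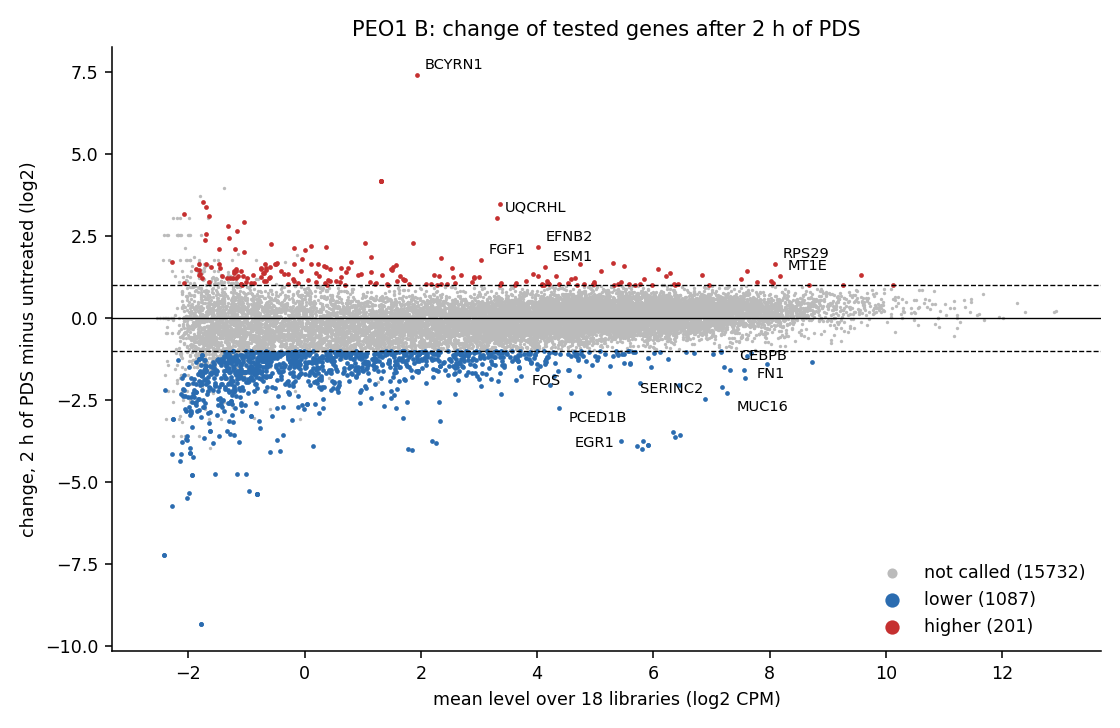
Each point is a gene, with its mean level over 18 libraries (log2 CPM) on the x axis and its log2 change after 2 h of PDS on the y axis; dashed lines mark log2 changes of -1 and 1, and red and blue points are the 201 and 1087 called genes. Most blue points lie at low levels, while EGR1, MUC16, FN1 and CEBPB are abundant transcripts that fell.

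EGR1, a zinc finger transcription factor induced within minutes by growth factor signalling, had the largest decrease among called genes with a mean log2 CPM of at least 3, leaving out pseudogenes and small or ribosomal RNAs. Genes in this ranking, in both directions, also had to show no overlap between treated and untreated libraries. Their separation was thus set by the choice and is no further support. Its level was 129, 110 and 113 CPM in the untreated libraries and 12.1, 8.71 and 5.34 CPM after 2 h. The groups did not overlap, and the log2 fold change was -3.76 ± 0.38 (SE, adjusted p = 2.9e-06). FOS, the AP-1 subunit made by the same early response, read 67.1, 34.6 and 49.4 CPM in untreated cells. After PDS it read 12.8, 10.4 and 7.73 CPM, a log2 change of -2.28 ± 0.60 (adjusted p = 0.0064). Every treated library was below every untreated library. BMP2, a secreted ligand of the bone morphogenetic protein pathway, went from 10.3, 10.9 and 16.5 CPM to 2.96, 2.90 and 3.01 CPM (log2 change -2.09 ± 0.17, adjusted p = 1.4e-09).

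MUC16, the membrane mucin that sheds the ovarian tumour marker CA125, differed widely between untreated libraries. It measured 266, 395 and 579 CPM untreated and 72.0, 72.6 and 109 CPM after 2 h (log2 change -2.29 ± 0.47, adjusted p = 0.0012). The lowest untreated library was still above the highest treated one. A further membrane mucin, MUC4, read 45, 47.3 and 65.3 CPM before and 8.85, 12.2 and 17.3 CPM after treatment (-2.04 ± 0.37, adjusted p = 0.00043). SERINC2, a multipass membrane protein of the serine incorporator family, moved from 169, 169 and 190 CPM to 40.6, 40.03 and 41.3 CPM (-2.11 ± 0.12, adjusted p = 4.8e-10). PCED1B, a PC-esterase domain gene, showed 40.8, 45.1 and 50.8 CPM in untreated cells and 5.89, 6.54 and 7.96 CPM after PDS (-2.74 ± 0.16, adjusted p = 1.4e-09). The remaining genes named in this direction were the zinc importer SLC39A4 (-2.28 ± 0.17) and the non-coding RNAs LINC00565 (-2.32 ± 0.14) and CEBPB-AS1 (-2.04 ± 0.10). LINC00565 lies within C13orf46, so its reads may be shared. CEBPB-AS1 overlaps CEBPB, a leucine zipper transcription factor of stress and inflammation. CEBPB itself fell from 267, 263 and 311 CPM to 102, 95.2 and 82.7 CPM (-1.59 ± 0.09). Reads of the pair cannot be told apart where they overlap, because the use of strand in counting is not given in the sources used here.

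EFNB2, the ligand of EphB receptors at cell contacts, went from 8.15, 8.02 and 8.39 CPM to 35.8, 35.9 and 38 CPM (log2 change 2.16 ± 0.10, adjusted p = 8.5e-14). FGF1, a fibroblast growth factor, increased from 9.20, 9.67 and 7.20 CPM to 30.5, 29.6 and 29.4 CPM (1.78 ± 0.13, adjusted p = 5.1e-10). ESM1, a secreted proteoglycan best known from endothelium, had 48.4, 47.7 and 45 CPM in untreated and 138, 146 and 132 CPM in treated cells (1.56 ± 0.21, adjusted p = 3.4e-05). In all 3 genes the treated libraries stood clear of the untreated ones, which the ranking required. SELENOW, a small selenoprotein, PET100, an assembly factor of cytochrome c oxidase, and the ribosomal protein genes RPS29 and RPL38 encode short mRNAs. Their log2 changes were 1.66 ± 0.08, 1.59 ± 0.083, 1.64 ± 0.069 and 1.43 ± 0.059. PET100 lies within STXBP2, so its reads may be shared. UQCRHL went from 2.59, 2.6 and 2.15 CPM to 21.1, 20.8 and 19.1 CPM (3.05 ± 0.12). It is a near-identical, intronless copy of UQCRH, a subunit of respiratory complex III, so reads could have been assigned to either. UQCRH rose from 173, 159 and 152 CPM to 255, 245 and 226 CPM (0.59 ± 0.063), and the value of UQCRHL is uncertain.

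**Figure D2:**
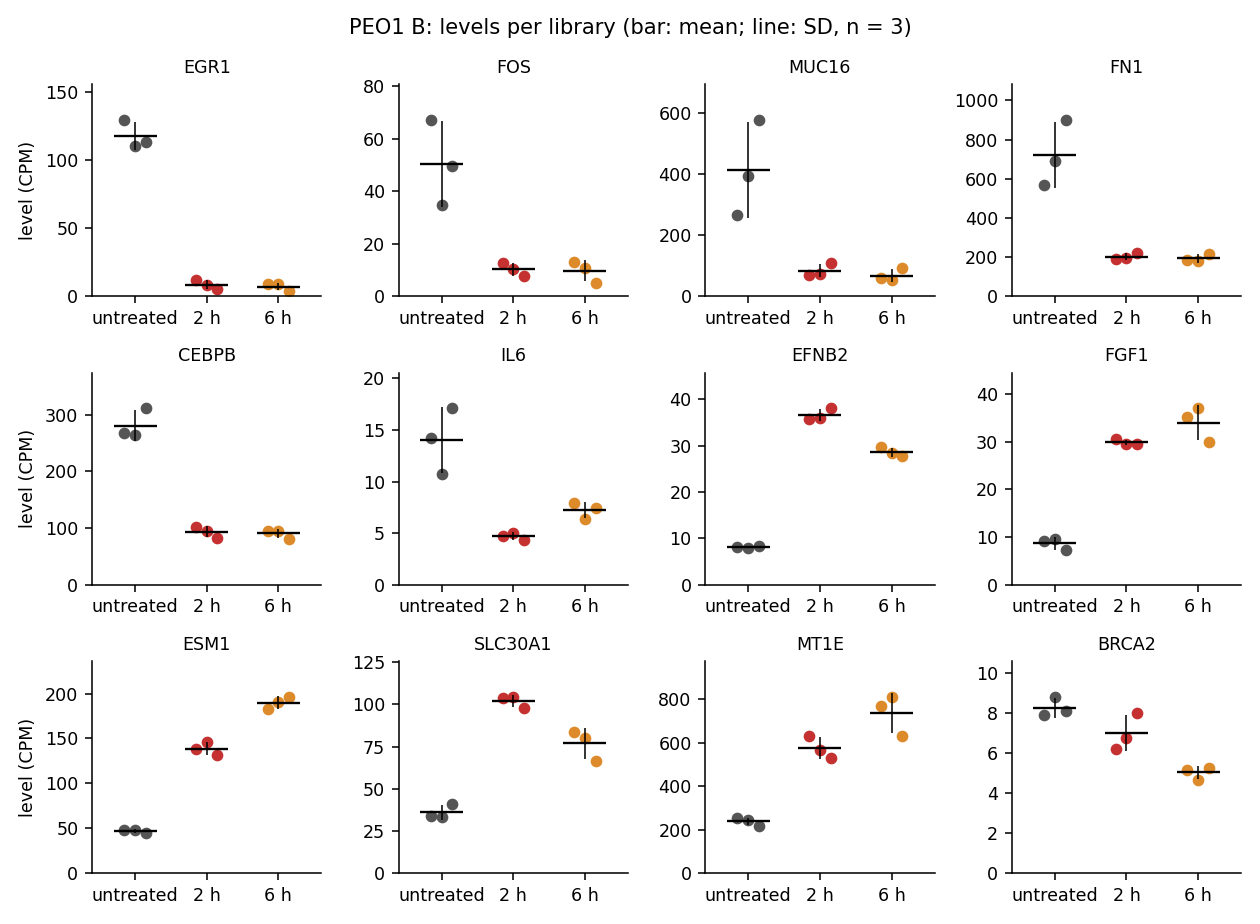
Levels in CPM (y axis, from 0) of 12 genes in each PEO1 B library, untreated and after 2 h and 6 h of PDS; points are libraries, bars the mean and lines the SD of 3 replicates. EGR1, FOS, MUC16, FN1, CEBPB and IL6 are lower in every treated library, EFNB2, FGF1, ESM1, SLC30A1 and MT1E are higher, and the 2 h and untreated levels of BRCA2 overlap.

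Promoters of the named genes were read from RefSeq (GRCh38.p14), since PDS acts on G4s and many lie upstream of genes. The motif searched was 4 runs of GGG or longer parted by 1 to 7 bases of any kind (N), on either strand. Windows were the 250 bases before the annotated start. Of the 10 genes named as higher, 9 were in the table and 2 held the motif, and of the 10 named as lower, 7 were in the table and 3 held it. These windows follow on the gene's own strand, with the motif in capitals. A run of CCC blocks in capitals is the motif on the opposite strand.
SELENOW (higher, chr19:47778453-47778702, plus strand): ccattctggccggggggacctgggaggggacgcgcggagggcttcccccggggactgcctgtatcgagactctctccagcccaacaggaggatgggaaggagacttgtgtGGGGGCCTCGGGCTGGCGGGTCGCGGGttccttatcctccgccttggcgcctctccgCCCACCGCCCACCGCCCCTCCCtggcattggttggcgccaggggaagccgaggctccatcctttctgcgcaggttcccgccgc
SLC30A1 (higher, chr1:211579162-211579411, minus strand): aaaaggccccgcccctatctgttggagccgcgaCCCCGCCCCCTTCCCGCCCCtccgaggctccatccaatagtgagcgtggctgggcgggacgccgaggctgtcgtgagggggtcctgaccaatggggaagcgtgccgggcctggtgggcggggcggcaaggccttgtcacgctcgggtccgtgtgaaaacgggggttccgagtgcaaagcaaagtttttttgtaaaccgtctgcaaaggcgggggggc
EGR1 (lower, chr5:138465229-138465478, plus strand): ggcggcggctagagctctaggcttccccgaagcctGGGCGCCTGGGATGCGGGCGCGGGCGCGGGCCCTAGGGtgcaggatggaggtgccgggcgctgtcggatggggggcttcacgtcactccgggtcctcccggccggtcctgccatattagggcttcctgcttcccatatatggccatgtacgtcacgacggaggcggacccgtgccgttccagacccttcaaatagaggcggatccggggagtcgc
MUC16 (lower, chr19:9065752-9066001, minus strand): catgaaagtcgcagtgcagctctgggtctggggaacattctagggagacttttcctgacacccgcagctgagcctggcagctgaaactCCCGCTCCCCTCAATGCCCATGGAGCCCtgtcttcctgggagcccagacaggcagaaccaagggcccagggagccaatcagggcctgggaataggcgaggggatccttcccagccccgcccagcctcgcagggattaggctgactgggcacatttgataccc
CEBPB-AS1 (lower, chr20:50192070-50192319, minus strand): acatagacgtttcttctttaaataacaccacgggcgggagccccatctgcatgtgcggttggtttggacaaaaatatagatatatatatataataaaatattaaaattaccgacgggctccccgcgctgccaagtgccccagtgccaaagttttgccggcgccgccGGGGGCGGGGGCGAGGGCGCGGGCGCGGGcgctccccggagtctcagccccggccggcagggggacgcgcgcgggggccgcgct
The motif thus stood upstream of genes that moved in opposite directions. Which genes held it differed between these windows and those placed by GENCODE. The annotation of the start differs, the GENCODE windows also reach past it, and some named genes were missing from the RefSeq search. The part of each in the difference was not tested. In windows placed by GENCODE, described next, EGR1, SELENOW and SLC30A1 held it as well, MUC16 and CEBPB-AS1 did not, and SLC39A4, SERINC2 and BMP2 did.

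Across genes the same motif was counted in windows of hg38 from 250 bases before to 50 bases after the canonical start in GENCODE release 44. Of 60885 such windows in the annotation, 17.32% held it. Among protein-coding genes over 5 CPM the share was 39.34% in all tested, 26.09% in the 69 called up that had a window and 54.19% in the 179 called down. By adjusted p alone it was 31.27% of 3994 higher genes and 47.92% of 2550 lower ones. Promoters with the motif are GC-rich, so the shares were also set out by GC content. Between 70 and 80% GC, 31.45% of 2083 genes with the motif and 29.57% of 1336 without it were lower by adjusted p alone. Between 50 and 60% GC the shares were 24.11% of 224 and 15.40% of 1656. Over 80% GC they were 41.94% of 515 and 37.00% of 100. The share of lower genes was thus higher with the motif in each class and also grew from the 50 to 60% class upward in genes without it. These are descriptions of sequence, and whether a G4 forms at any window was not measured in these files.

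In protein-coding genes over 5 CPM the median log2 change was 0.44 for 537 genes with canonical transcripts under 1000 bases, 0.24 at 1000 to 2000, 0.13 at 2000 to 3000, 0.04 at 3000 to 5000 and -0.08 in 3073 genes over 5000 bases. By adjusted p alone 73.18% of the shortest class were higher and 6.52% lower, against 21.22% and 36.71% of the longest. Within transcripts of 2000 to 5000 bases, 27.52% of genes with the promoter motif and 19.57% without it were lower. The part of length and of GC content in the results of single genes was not tested.

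**Figure D3:**
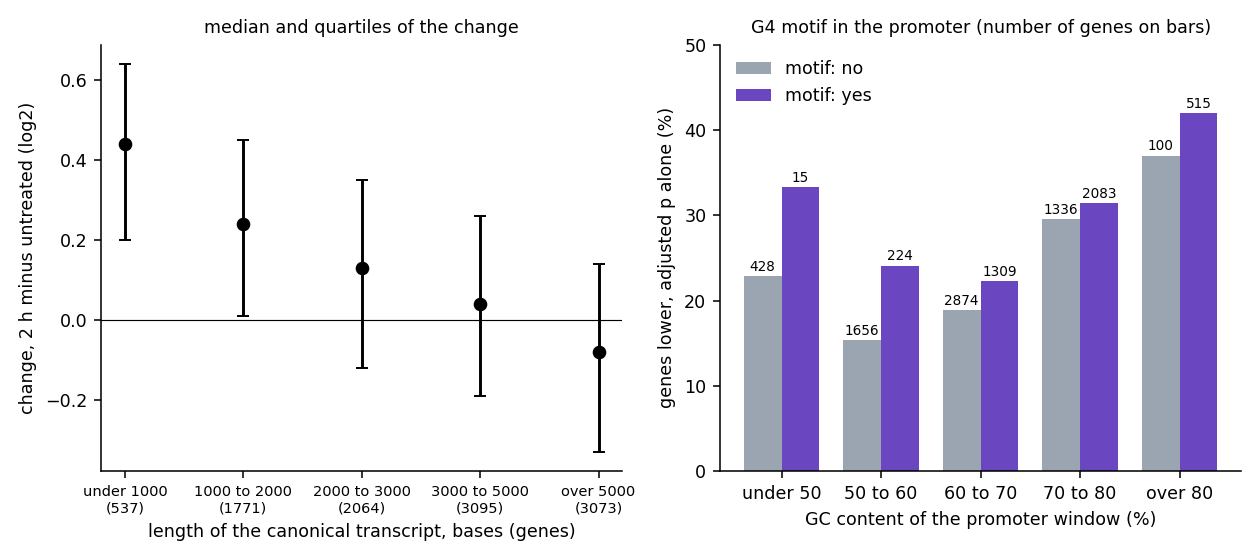
Left, median log2 change at 2 h (points) with quartiles (bars) against the length class of the canonical transcript, and right, the percentage of genes lower by adjusted p alone against the GC content of the promoter window, without (grey) and with (purple) the G4 motif. The median goes from 0.44 in the shortest to -0.08 in the longest class, and in each GC class the purple bar is the taller.

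Counts of called genes in this and the following lists can be read against 6.39% of all genes called lower and 1.18% called higher. By adjusted p alone 26.2% of all genes were lower and 26.4% higher, and 11 and 6 of 29 tested immediate early genes. Of these 29 genes, 6 were downregulated and none upregulated, with a median log2 change of -0.34. Besides EGR1 and FOS these were KLF2, IER3, NR4A1 and FOSB. KLF2, a Krüppel-like factor, measured 3.35, 2.35 and 4.43 CPM untreated and 0.661, 0.724 and 1.01 CPM at 2 h (-2.07 ± 0.51, adjusted p = 0.0037). NR4A1, an orphan nuclear receptor, went from 36.1, 37.6 and 38.1 CPM to 16.8, 17.4 and 17.6 CPM (-1.11 ± 0.34, adjusted p = 0.016). Untreated PEO4 B libraries read 181, 223 and 75.2 CPM of NR4A1, and their spread enters this SE. IER3, an early response regulator of apoptosis, changed by -1.42 ± 0.23. FOSB read 16.3, 4.83 and 11.4 CPM untreated and 2.27, 2.27 and 1.85 CPM treated, and its call (-2.33 ± 0.77, adjusted p = 0.022) was lost without untreated replicate 1 (-1.91) or 3 (-2.28) and without 2 h replicate 1 (-2.36), 2 (-2.38) or 3 (-2.23). Without untreated replicate 1, 1 gene of the list was called higher. The list did not move as a block. JUN had 139, 150 and 138 CPM before and 210, 202 and 188 CPM after PDS, with groups apart but an adjusted p of 0.10. The spread in the fit includes PEO4 B, whose untreated libraries read 523, 516 and 214 CPM of JUN. MYC (0.27 ± 0.054) and the stress factor ATF3 (0.49 ± 0.13) passed the test upward without reaching the fold threshold.

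Among 22 tested inducible feedback inhibitors of MAP kinase signalling, 9 were lower and 5 higher by adjusted p alone. Called lower were 5 and called higher none, with a list median of -0.08 against -0.03 over all genes. SPRY1, which blocks receptor tyrosine kinase signalling, fell from 1.49, 0.826 and 1.19 CPM to 0.189, 0.155 and 0.209 CPM (-2.63 ± 0.40, adjusted p = 5.4e-06). The dual-specificity phosphatases DUSP2, DUSP8 and DUSP1 changed by -2.03 ± 0.28, -1.48 ± 0.46 and -1.26 ± 0.36, and IER3, listed here as well, completes the 5. Without untreated replicate 3, 1 gene of this list was called higher. Of 25 NF-kB targets, chemokines and cytokines, 13 were lower and 1 higher by adjusted p alone, and 5 were called lower and none higher (median -0.37). IL6 went from 14.3, 10.8 and 17.1 CPM to 4.72, 5.07 and 4.33 CPM (-1.57 ± 0.17, adjusted p = 4.6e-08). The neutrophil chemokine CXCL2 went from 14.9, 7.19 and 13.2 CPM to 3.97, 4.16 and 3.10 CPM (-1.64 ± 0.22, adjusted p = 3.2e-06). The macrophage growth factor CSF1, the chemokine CXCL3 and the NF-kB cofactor NFKBIZ changed by -1.14 ± 0.067, -1.31 ± 0.39 and -1.03 ± 0.14. Without untreated replicate 3 the count was 3, since CXCL3 (-0.85) and NFKBIZ (-0.99) dropped out. NFKBIZ also dropped out without 2 h replicate 2 (-0.88).

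The next counts of lower genes can be read against 6.39% of all genes called lower. In the list of ID genes and the BMP and TGF-beta pathway, 4 of 30 genes were lower and none higher (median -0.06). These were BMP2, the activin antagonist FST (-2.37 ± 0.31), the intracellular inhibitor SMAD6 (-1.47 ± 0.10) and the transcription factor ATOH8 (-2.60 ± 0.25). SMAD6 had 39.9, 39.5 and 46.4 CPM untreated and 13.8, 16.0 and 15.5 CPM treated. The target ID1 went from 164, 138 and 177 CPM to 98.8, 88.2 and 80.3 CPM, a log2 change of -0.84 ± 0.12 that passed the test but not the fold threshold. Of 44 WNT genes, 5 were lower and 1 higher (median -0.15). The ligand WNT5A fell from 6.61, 5.50 and 6.01 CPM to 2.71, 1.99 and 2.36 CPM (-1.36 ± 0.15, adjusted p = 6.6e-08). The ligand WNT6 changed by -2.67 ± 0.60, from 1.68, 0.992 and 1.67 CPM to 0.22, 0.259 and 0.179 CPM, and the target SP5 by -1.62 ± 0.23. WNT6 overlaps WNT10A and SP5 lies within ERICH2-DT, so their reads may be shared. WNT10A (-1.10 ± 0.081) lost its call without untreated replicate 3 (-0.96). WNT16 (-1.13 ± 0.45) lost its call without untreated replicate 2 (-0.90) or 3 (-1.02) and without 2 h replicate 1 (-1.11), 2 (-1.19) or 3 (-1.08). WNT4, the gene that was higher, had at most 0.597 CPM in any of the 6 libraries and lost its call without untreated replicate 3 (1.30) or 2 h replicate 3 (1.2) and in DESeq2 (1.37). The count of lower WNT genes was 3 without untreated replicate 3, and that of higher ones 3 without untreated replicate 2.

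In the Notch pathway 3 of 21 genes were lower and none higher (median -0.13). The effector HES1, a transcriptional repressor, read 53.2, 33.8 and 50.8 CPM untreated and 18.3, 18.9 and 13.8 CPM at 2 h (-1.43 ± 0.31, adjusted p = 0.0019). The receptor NOTCH3 went from 125, 154 and 135 CPM to 70.4, 64.0 and 68.8 CPM (-1.03 ± 0.15). Its groups stood well apart, but the change sat at the fold threshold and was -0.93 without untreated replicate 2 and -0.98 without 2 h replicate 2. The count of lower Notch genes was 1 without untreated replicate 2 or 2 h replicate 2, and 1 gene was higher without 2 h replicate 3. HEYL (-1 ± 0.29) lost its call with the replicate block (-0.998) and without untreated replicate 2 (-0.58), 2 h replicate 2 (-0.98) or 2 h replicate 3 (-0.80). Of 27 YAP/TEAD factors and targets 1 was called, the angiomotin AMOT (-1.45 ± 0.19), which fell. Of 32 interferon-stimulated genes, OASL (1.08 ± 0.17) and IFI44 (1.28 ± 0.14) were higher and MX2 and IFITM2 lower. MX2 was read at 0.623 to 0.746 CPM in untreated cells and at 0 to 0.063 CPM after PDS, at least 8.08-fold lower when each treated library is set to 3 counts. IFITM2 (-2.29) overlapped between the groups and lost its call without untreated replicate 1 (-2.05) or 2 (-2.01) and without 2 h replicate 1 (-1.78) or 2 (-1.95). OASL stayed under the fold threshold with library totals (0.93).

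**Figure D4:**
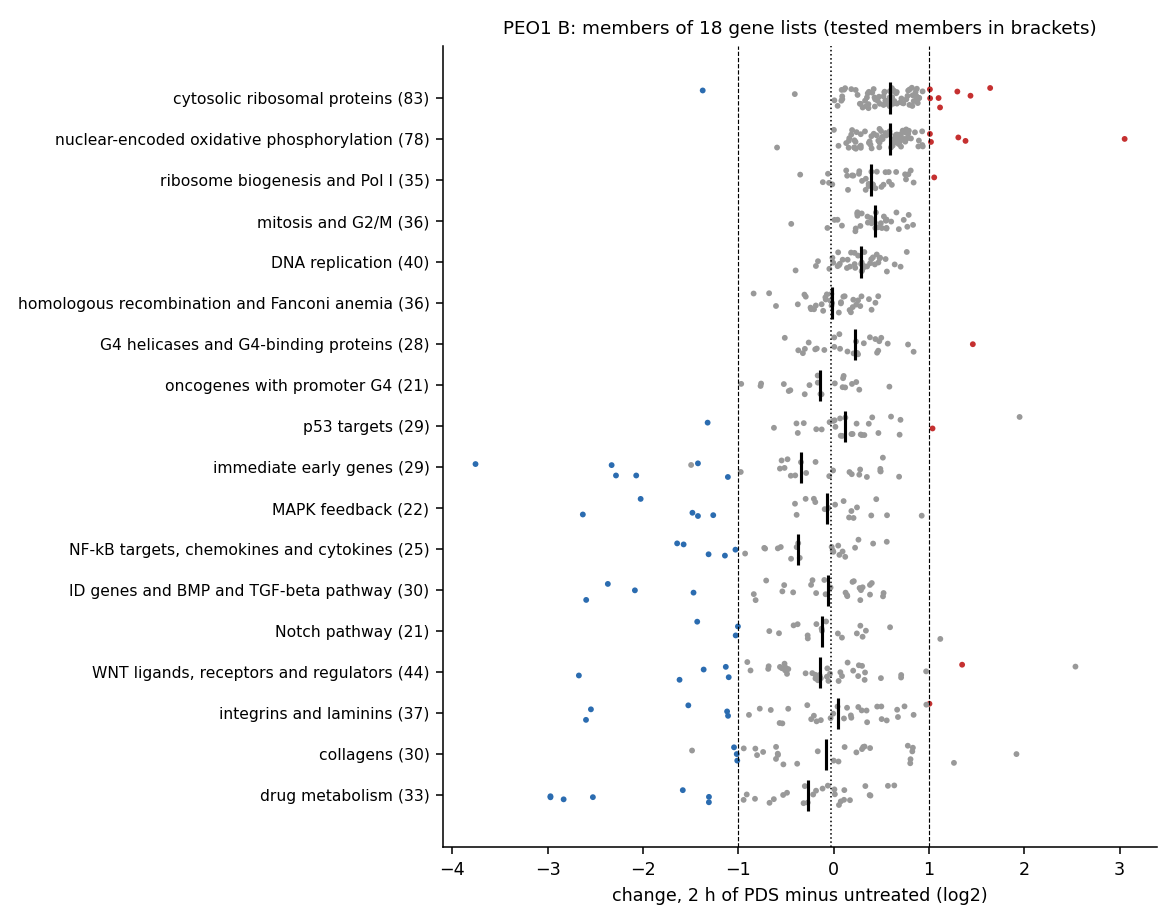
Each point is a tested member of a gene list (rows, with the number tested), placed by its log2 change after 2 h of PDS; red and blue points are called genes, black bars list medians, the dotted line the median of all 17020 genes and dashed lines the fold threshold. Ribosomal protein and oxidative phosphorylation genes lie to the right with medians of 0.59, whereas immediate early and NF-kB genes have tails of blue points.

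Genes of translation and respiration were mostly higher, by small steps. Counts by adjusted p alone, here and below, can be read against 26.4% of all genes higher and 26.2% lower. The higher share was larger at high levels. By this criterion 2156 of 5398 genes at 20 to 100 CPM were higher and 1314 lower. Over 100 CPM, 1251 of 2310 were higher and 371 lower. The part of level in the list counts was not tested. Of 83 genes of cytosolic ribosomal proteins 73 were higher and 1 lower by adjusted p alone, but only 7 passed the fold threshold upward, and the median was 0.59. RPS14, a protein of the small subunit, rose from 441, 426 and 415 CPM to 1131, 1037 and 982 CPM (1.30 ± 0.067, adjusted p = 3.1e-13). RPS9, of the same subunit, was the 1 lower gene and read 5.75, 5.12 and 4.92 CPM untreated and 2.27, 1.89 and 1.94 CPM treated (-1.37 ± 0.15). Its untreated mean of 5.26 CPM stood far below the 427 CPM of RPS14. How reads were assigned to RPS9 was not tested, and its value is uncertain. Of 78 nuclear-encoded oxidative phosphorylation genes 71 were higher and none lower by adjusted p alone, with 5 past the fold threshold and a median of 0.59. ATP5MC3, a subunit of the ATP synthase ring, went from 46.4, 46.1 and 41.1 CPM to 122, 118 and 109 CPM (1.38 ± 0.068, adjusted p = 1.6e-13), and ATP5ME, also of the ATP synthase, changed by 1.31 ± 0.079. With library totals in place of TMM both list medians were 0.44 and 3 genes of each list were past the fold threshold. Without 2 h replicate 1, 3 oxidative phosphorylation genes were past it. Genes with transcripts under 1000 bases, of any function, had a median of 0.44, and the part of length in these lists was not tested.

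Of 35 ribosome biogenesis genes 28 were higher and none lower by adjusted p alone. FBL, the methyltransferase of box C/D particles, was the 1 called gene, at 151, 154 and 153 CPM before and 335, 315 and 301 CPM after PDS (1.05 ± 0.059). It stayed under the fold threshold with library totals (0.91). Of 36 mitotic genes 31 were higher and 1 lower by adjusted p alone, and of 40 DNA replication genes 27 were higher and 2 lower, with no gene of either list called. Among 21 SR splicing factors 15 were higher and 2 lower by adjusted p alone, among 28 cholesterol synthesis genes 17 and 1, and among 27 genes of glycolysis and hypoxia 14 and 5, again with no gene called. Of 22 heat shock chaperones 14 were higher and 3 lower by adjusted p alone, and 1 was called, in the lower direction. It was HSPA1A, an inducible HSP70, with 0.24, 0.578 and 0.263 CPM untreated and 0.063, 0.0517 and 0.0895 CPM at 2 h. HSPA1B, nearly identical to it, read 1.63, 1.28 and 1.89 CPM untreated and 1.98, 2.02 and 1.82 CPM at 2 h (0.28 ± 0.19, adjusted p = 0.22). The untreated libraries held 5, 14 and 6 counts of HSPA1A. Their mean was 4.14-fold the level of 3 counts per treated library, which is no lower bound given this spread. The call of HSPA1A was lost without untreated replicate 2, where the fitted log2 change was -1.83. AURKB, the kinase of the chromosomal passenger complex, rose by 0.79 ± 0.067 and the securin PTTG1 by 0.83 ± 0.082. FEN1, the flap endonuclease, changed by 0.77 ± 0.065 from 119, 120 and 120 CPM to 212, 205 and 194 CPM.

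Among 28 helicases and other G4-binding proteins 14 were higher and 7 lower by adjusted p alone. The main G4 resolvase DHX36 went from 81.8, 77.3 and 76.2 CPM to 107, 108 and 113 CPM (0.48 ± 0.066), and NPM1, a nucleolar protein that binds G4s, changed by 0.84 ± 0.062. LIN28B was called (1.46 ± 0.55), but had at most 0.517 CPM and lost its call without untreated replicate 2 (1.2) or 3 (1.46) or 2 h replicate 2 (1.11). None of 21 oncogenes known for promoter G4s was called, and 3 were higher and 5 lower by adjusted p alone. VEGFA, the angiogenic factor, went from 51.1, 48.4 and 46.9 CPM to 27.6, 30.04 and 28.7 CPM (-0.76 ± 0.091, adjusted p = 5.1e-07). TERT (-0.77 ± 0.15) and MYB (-0.97 ± 0.25) were lower. MYB passed the fold threshold with library totals (-1.12) and without untreated replicate 1 (-1.12) or 3 (-1.10) or 2 h replicate 1 (-1.002) or 3 (-1.08). MYC, the best studied promoter G4 gene, went from 278, 260 and 286 CPM to 328, 337 and 328 CPM.

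Of 36 genes of homologous recombination and the Fanconi anemia pathway none was called. By adjusted p alone 10 were higher and 9 lower, near the shares over all genes (26.4% and 26.2%). The scaffold nuclease subunit SLX4 went from 13.7, 16.5 and 15.9 CPM to 7.84, 8.58 and 9.31 CPM (-0.84 ± 0.11), while the exonuclease EXO1 rose by 0.47 ± 0.081. BRCA2, the gene restored in this line, read 7.86, 8.80 and 8.08 CPM untreated and 6.20, 6.75 and 7.96 CPM at 2 h. The groups overlapped, and the difference of -0.244 in mean log2 CPM gave p = 0.2 in a two-sided exact permutation test, whose smallest possible p with 3 against 3 is 0.1. Of 29 p53 targets 1 was higher and 1 lower. CDKN1A, the cell cycle inhibitor p21, went from 9.78, 8.22 and 8.65 CPM to 19.6, 17.9 and 17.1 CPM (1.04 ± 0.14, adjusted p = 5.1e-06). Its groups were clear of each other, but the change lay at the fold threshold and was 0.89 with library totals, 0.99 without untreated replicate 2 and 0.995 without 2 h replicate 1. TP53INP1, a p53-induced regulator of cell death and autophagy, changed by -1.32 ± 0.26. It lies within NDUFAF6, so its reads may be shared. Among 11 topoisomerases and tyrosyl-DNA phosphodiesterases, 16 shelterin, CST and telomerase genes and 25 genes of P-TEFb and the 7SK complex none was called.

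Lineage markers and matrix genes were mixed. Of 18 ovarian carcinoma markers MUC16 and WFDC2 were called, both lower. By adjusted p alone 8 of the list were higher and 6 lower. The keratins KRT8 (0.74 ± 0.089) and KRT18 (0.82 ± 0.11), intermediate filament proteins of epithelia, rose, and ESR1, the estrogen receptor, changed by -0.78. The list median was -0.06. The summed level of the list was 11780 to 12120 CPM untreated and 16010 to 17440 CPM at 2 h. KRT8 (mean 3265 CPM untreated and 5438 CPM at 2 h) and KRT18 (1695 and 2996 CPM) made up a large part of that sum. WFDC2, the secreted marker HE4, fell from 21.3, 21.4 and 21.2 CPM to 8.56, 9.33 and 8 CPM (-1.30 ± 0.17, adjusted p = 8.8e-06). Of 16 mesenchymal markers, the repressor SNAI2 and the gelatinase MMP9 were higher and the matrix protein FN1 lower. SNAI2 went from 2.64, 1.65 and 2.37 CPM to 7.81, 7.71 and 6.06 CPM (1.70 ± 0.18), and MMP9 changed by 1.54 ± 0.17. FN1 went from 569, 690 and 901 CPM to 192, 194 and 224 CPM (-1.82 ± 0.16, adjusted p = 6.2e-07). Of 37 integrin and laminin genes 5 were lower and 1 higher, of 30 collagens 3 were lower, and of 28 genes of muscle and cardiomyopathy 3 were lower. ITGA9, an integrin receptor subunit, had 3.45, 3.10 and 3.82 CPM untreated and 0.661, 0.543 and 0.567 CPM treated (-2.55 ± 0.18). In the collagens COL8A1 went from 64.4, 63.5 and 63.1 CPM to 30.9, 32.8 and 30.7 CPM, a change of -1.02 ± 0.09 that was -0.99 without 2 h replicate 1 or 3. COL26A1 (-1.05 ± 0.38) lost its call without untreated replicate 1 (-1.02), 2 (-1.06) or 3 (-1.03) and without 2 h replicate 1 (-1.02) or 3 (-0.94). The count of lower collagens was 1 without untreated replicate 2, 0 without 2 h replicate 3 and 0 with no filter on low counts. The higher integrin and laminin genes numbered 2 without 2 h replicate 3. Of 33 drug metabolism genes 7 were lower and none higher, among them the aryl hydrocarbon receptor targets CYP1A1 (-1.58 ± 0.26) and CYP1B1 (-1.31 ± 0.099). The sulfotransferases SULT1A3 and SULT1A4 are near-identical and carry the same counts, so they stand for 1 value (-2.97 ± 0.46). Of 33 ABC transporters ABCG4 (-1.94 ± 0.30) and 3 others were lower, and ABCC9 (1.32 ± 0.20) was higher.

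A group chosen after its values were seen was that of metallothioneins, small metal-binding proteins, and zinc transporters, of which 6 of 24 tested genes were higher and 1 lower. MT1X rose from 27.0, 20.9 and 20.6 CPM to 82.4, 69.1 and 64.4 CPM (1.66 ± 0.13) and MT1E from 253, 244 and 219 CPM to 631, 568 and 531 CPM (1.27 ± 0.087). MT1G changed by 1.86 ± 0.40 and MT1M by 1.28 ± 0.16. MT1F (1.01 ± 0.17) fell under the threshold with library totals (0.86) and without untreated replicate 2 (0.998) or 3 (0.97) or 2 h replicate 1 (0.98). SLC30A1, the plasma membrane zinc exporter, went from 33.6, 33.4 and 41.2 CPM to 104, 105 and 98.1 CPM (1.5 ± 0.11, adjusted p = 3.1e-09). SLC39A4, a zinc importer, went the other way, from 17.6, 16.2 and 19.1 CPM to 3.84, 3.54 and 3.49 CPM. MT2A was higher by 0.58 ± 0.11 and the importer SLC39A10 changed by -0.46 ± 0.099. Metallothionein genes are similar in sequence, so reads may be shared among them.

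Non-polyadenylated and small RNAs were unevenly represented. Of 1087 downregulated genes 58.23% were protein-coding, against 75.62% of the 201 upregulated. Called lower were 34.24% of 184 snoRNA, 27.22% of 316 microRNA and 19.27% of 441 pseudogene entries, against 4.44% of 14256 protein-coding genes. Genes nested within another gene made up 25.5% of the downregulated set, 12.1% of the upregulated and 10.1% of all tested, and reads of a nested gene may come from its host. All 15 ribosomal RNA entries that were called, of 20 tested, were lower, as were the library shares of ribosomal RNA. The Pol III transcript BCYRN1, a brain cytoplasmic RNA, had 0.0958, 0.124 and 0.176 CPM untreated and 25.3, 23.9 and 20.3 CPM treated (7.41 ± 0.24). Its untreated libraries held very few reads, so the size of this change and its SE are uncertain. The spliceosomal U6 entries RNU6-1 and RNU6-9, which are copies and carry equal counts, read 0.623, 0.372 and 0.132 CPM untreated and 7.90, 5.95 and 6.24 CPM treated (4.16 ± 0.28). RN7SK, the scaffold of the 7SK complex, went down from 2.25, 2.52 and 2.11 CPM to 0.819, 0.336 and 1.04 CPM (-1.67 ± 0.29). The study's methods state poly(A) enrichment before sequencing, so RNAs without a poly(A) tail were read from what passed that step, and its part in these values was not tested.

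The genes called at 2 h had similar median changes at 6 h. Both times were compared with the same untreated libraries, so their values are given side by side. The 201 upregulated genes had a median log2 change of 1.28 at 2 h and 1.26 at 6 h, and the 1087 downregulated genes of -1.43 and -1.34. In the direct comparison of 6 h with 2 h, 12 genes (0.0705%) were higher and 17 (0.0999%) lower, and 3.96% and 2.98% by adjusted p alone. ID2, an inhibitor of helix-loop-helix factors, went on falling, from 47.7 CPM untreated to 35.5 ± 2.45 CPM at 2 h and 14.5 ± 1.32 CPM at 6 h (means ± SD, n = 3). Its log2 difference between the times was -1.29 ± 0.087 (adjusted p = 2.8e-09). CA9, the hypoxia-induced carbonic anhydrase, had 2.15 ± 0.42 CPM at 2 h and 13.3 ± 0.52 CPM at 6 h (2.63 ± 0.23, adjusted p = 4.9e-07). The Hedgehog receptor PTCH1 fell to 0.671 CPM at 2 h and stood at 1.44 CPM at 6 h, against 1.79 CPM untreated, and TENT5C, a poly(A) polymerase, rose to 2.65 CPM and stood at 1.23 CPM at 6 h, against 0.750 CPM. The kinase TNIK was at 2.24, 0.806 and 0.307 CPM at the 3 times. Counts at this contrast were small and moved with single libraries, from 5 without 2 h replicate 2 to 11 for higher genes, and from 7 without 6 h replicate 1 to 24 without 6 h replicate 3 for lower ones.

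In PEO4 B cells, 2 h of the same dose gave 1089 upregulated (6.4%) and 1870 downregulated (11%) genes. Of the 201 genes upregulated in PEO1 B, 43.8% were also called higher in PEO4 B, which is 8.08% of the PEO4 B list, and 9.45% were called lower. Of the 1087 downregulated, 43.5% were also lower, 25.3% of that list in PEO4 B, and 5.8% were higher. The difference between the lines in the 2 h change was tested as an interaction, which called 1039 genes (6.1%) with a higher change in PEO4 B and 837 (4.92%) with a lower one, or 19.3% and 18% by adjusted p alone. The change of PEO4 B itself passed for 33.3% of genes upward and 32% downward by that criterion. EGR1 changed by -3.76 in PEO1 B and -3.54 in PEO4 B on the log2 scale, and SERINC2 by -2.11 and -2.03. IL6 and CXCL2 had opposite signs. IL6 changed by -1.57 ± 0.17 in PEO1 B and 1.26 ± 0.22 in PEO4 B (difference 2.83 ± 0.27, adjusted p = 2.4e-08), and CXCL2 by -1.64 ± 0.22 and 2.32 ± 0.30 (difference 3.96 ± 0.37). ITGA9 fell in both lines, by 2.55 on the log2 scale in PEO1 B and 0.62 in PEO4 B. LINC00565 fell in PEO1 B (-2.32) and had a log2 change of 0.09 in PEO4 B that did not pass the test. ZNF560, a zinc finger gene, fell in PEO1 B (-1.73) and rose in PEO4 B (1.19). CDKN1A differed in the other sense, at 1.04 ± 0.14 in PEO1 B and -0.46 ± 0.13 in PEO4 B (difference -1.5 ± 0.19, adjusted p = 4.5e-06). ATP5MC3 was raised by 1.38 ± 0.068 in PEO1 B and 0.46 ± 0.067 in PEO4 B (difference -0.93 ± 0.096), and the low-level keratin KRT9 was higher in PEO1 B and lower in PEO4 B (difference -3.99 ± 0.62). VEGFA and CEBPB-AS1 fell further in PEO4 B, with differences of -0.76 ± 0.12 and -0.66 ± 0.13.

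**Figure D5:**
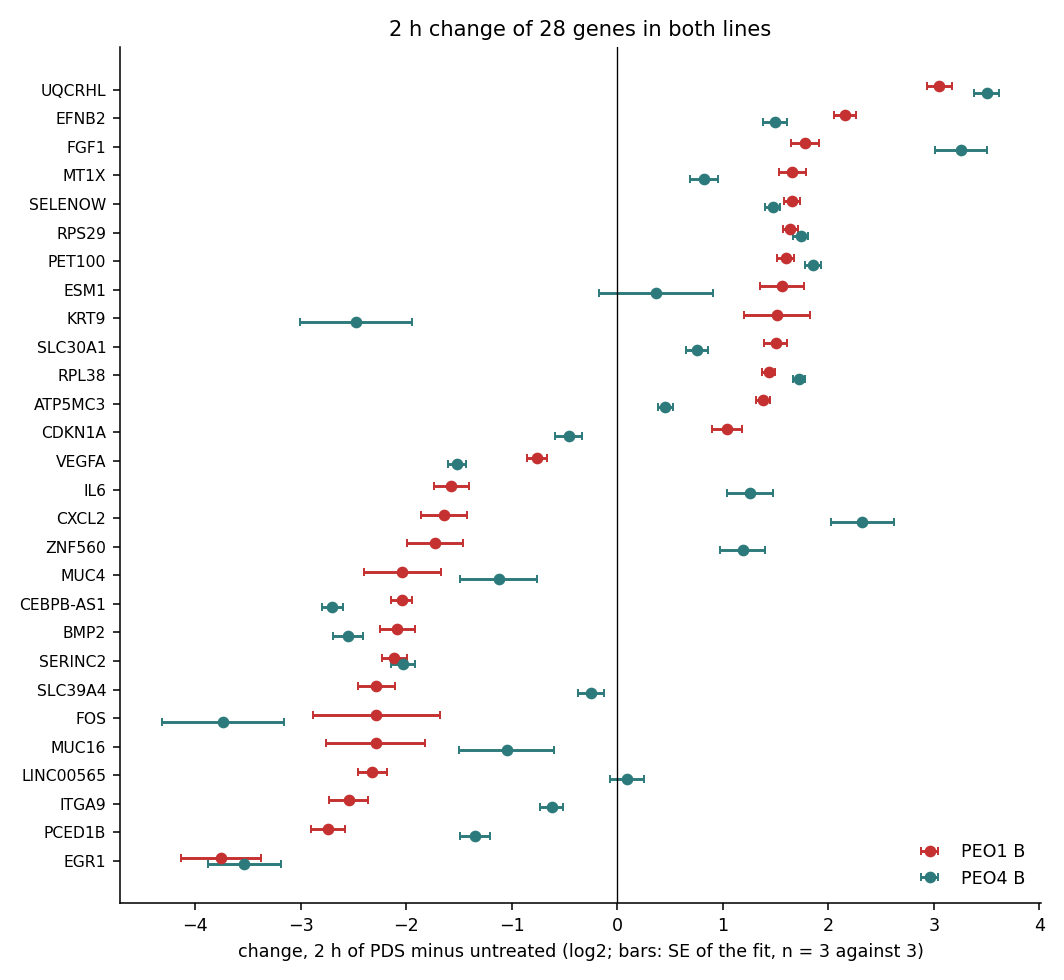
Log2 change after 2 h of PDS (x axis) of 28 genes in PEO1 B (red) and PEO4 B (teal). Bars are the SE derived from the F statistic, for 3 against 3 libraries. EGR1 and SERINC2 nearly coincide, whereas IL6, CXCL2, ZNF560, CDKN1A and KRT9 lie on opposite sides of 0.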

How the data were processed

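Gene expression was measured by RNA-seq in 18 libraries of PEO1 B and PEO4 B cells, untreated or after 2 h or 6 h of 5 µM PDS, with 3 replicates per condition. The authors deposited a table of raw gene counts. Read quality was assessed with FastQC, adapters were removed with fastp and STAR was used for alignment to hg38, and the submitters' processing notes also name featureCounts. The study tested its counts with DESeq2. The study's methods state poly(A) enrichment. The annotation, the use of strand and the library kit of these lines are not given in the sources used here, so overlapping, nested and near-identical genes are uncertain. 1 line without readable counts was left out of the table.

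The tests used edgeR 4.0.16 under R 4.3.3. Low genes were removed with filterByExpr (minimum count 10, minimum total 15). TMM set the library scaling. All 18 libraries entered a single robust quasi-likelihood fit with 1 coefficient for each of 6 groups, leaving 12 residual degrees of freedom. P-values were adjusted by Benjamini-Hochberg over 17020 genes. Values after ± are SEs unless named otherwise. They were derived as the size of the log2 change divided by the square root of the F statistic. They are therefore approximate, above all for large changes and low counts. On simulated counts 197 of 200 changed genes were recovered for the 2 h comparison, with 5 false calls among 16612 genes. The changes were planted only in genes with a mean over 1 CPM, at log2 changes of -2.5, -1.5, 1.5 or 2.5. All other genes kept 1 mean in all groups. The simulation therefore gives no recovery rate for genes under 1 CPM or for changes near the fold threshold. A group with no library above 3 counts was set to 3 counts per library, which makes its fold a lower bound for the counting error of that group only. Spread in the other group is not covered.

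Members and gene lists were chosen with earlier results of these data known. The rule for named genes took the 10 genes with the largest log2 fold change in each direction among those called whose log2 CPM averaged 3 or more and whose treated and untreated libraries stood apart, passing over pseudogenes and small or ribosomal RNA genes. It further took 2 called members of each list (or the member with the smallest adjusted p) and BRCA2, and for the line difference 5 such genes in each direction. The other genes named, and the metallothionein list, were chosen after their values were seen. Positions and biotypes came from RefSeq (16701 of 17020 genes matched) and lengths, GC content and promoter windows from GENCODE release 44 on hg38 (15908 matched).

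The alternatives were library totals, DESeq2 size factors, upper-quartile scaling, TMM without ribosomal and small RNA genes, the Wald test of DESeq2 1.42.0, other filters and thresholds, a fit to the 6 libraries compared, a replicate block, and omission of single libraries. Omission of PEO4 B libraries, for the line difference, was added after seeing the data.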

Additional observations from a re-analysis of the deposited data

Results flagged for a closer look

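The change after 2 h of PDS was compared between PEO4 B and PEO1 B for all named genes, as the interaction of line and treatment in edgeR's quasi-likelihood test. It differed for 37 of them, at an adjusted p under 0.05 and an absolute log2 difference over 1, with 25 differences positive and 12 negative. Over all genes tested 6.1% had a higher and 4.92% a lower change in PEO4 B. The named genes were chosen for large changes in PEO1 B, some of them for the line difference, so this count and its direction are partly fixed by the choice. The values below are log2 changes in PEO4 B minus those in PEO1 B. They are 21 of the 82 genes named by rule and 16 of the other 51, and the latter were chosen after their values were seen.

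Among cytokines and signalling regulators the differences were CXCL2 3.96, CXCL3 1.84, IL6 2.83, DUSP2 1.64, DUSP8 1.84 and TNIK 1.14. Among growth factors, their antagonists and regulators they were FGF1 1.48, FST 3.60, SMAD6 -1.39, WNT5A -1.58, WNT10A -2.5 and WNT16 3.67. Enzymes and transporters gave CYP1A1 2.00, CYP1B1 1.27, SULT1A3 2.22, SULT1A4 2.22, ABCG4 2.10, SLC39A4 2.03, SLC39A10 1.12 and MT1G -2.48, where SULT1A3 and SULT1A4 hold the same counts. Transcription factors and cell cycle genes gave ZNF560 2.92, MYB 1.6, SNAI2 -1.12 and CDKN1A -1.5. Surface, matrix and marker genes gave ITGA9 1.93, WFDC2 1.80, KRT9 -3.99, KRT8 -1.35, KRT18 -1.33 and COL26A1 -1.84. The remaining values were LINC00565 2.41, PCED1B 1.40, RPS9 1.08, RNA18SN1 1.98 and RNA18SN5 1.98, of which the ribosomal RNA entries are near-identical copies. The differences of PTCH1 -3.74 and HSPA1A -4.76 rest on PEO4 B libraries that were all at 0 CPM after 2 h, so these fitted values depend on the prior count and are no bound.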

How the results depend on the processing

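The number of genes higher after 2 h in PEO1 B (201) was 120 with library totals, 51 with a mean of at least 5 CPM, 4489 by adjusted p alone, 1017 at 1.5-fold and 29 at a log2 change over 2. Leaving out one library at a time gave 188 to 221. The number lower (1087) was 312 with a mean of at least 5 CPM, 4458 by adjusted p alone, 2228 at 1.5-fold, 227 at a log2 change over 2 and 949 to 1086 with one library left out. Library totals gave 1491 lower genes, upper-quartile scaling 148 higher and 1280 lower, and DESeq2 188 and 1080. With library totals the median of all genes moved by -0.15 and 92.6% of called genes were lower, against 84.4% with TMM. Genes higher at 6 h than at 2 h (12) numbered 0 with a mean of at least 5 CPM, 6 in DESeq2, 674 by adjusted p alone and 5 to 11 with one library left out, and those lower (17) numbered 2, 9, 508 and 7 to 24. Genes with a higher 2 h change in PEO4 B (1039) numbered 475 with a mean of at least 5 CPM, 3285 by adjusted p alone and 945 to 1130 with one PEO1 B or PEO4 B library left out, and those with a lower change (837) numbered 406, 3066 and 776 to 933. The PEO4 B libraries were left out as an alternative chosen after seeing the data. The stricter filter tests fewer genes and the thresholds call more or fewer by construction. The cause of the other differences was not tested.

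The replicate numbers were not taken to pair the samples: deviations of same-numbered untreated and 2 h libraries correlated at -0.0815, -0.0622 and -0.0183. For PEO1 B at 2 h and 6 h the same-numbered values were 0.0834, 0.0622 and 0.526, and unlike-numbered ones ran from -0.554 to 0.512. Single libraries at these times thus shared deviations, also across numbers, and the cause was not tested. With the replicate block 197 genes were higher and 1087 lower after 2 h, 10 and 13 between 6 h and 2 h, and 1026 and 824 between the lines. Among the genes named with a log2 change at 2 h, none reversed its sign under the alternatives tried. The other called genes were not checked for this. Some small list medians did change sign, such as those of p53 targets (0.122, lowest -0.0257) and of the markers of other cell types (0.146, lowest -0.393). The call of HEYL was lost with the block. Untreated libraries had fewer counts than treated ones, and at these totals a gene under 1 CPM has few counts in each.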
